A study of Mus musculus with 6 samples.

Results

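The genes described here are the subunits of the transcription factor NF-kB and the proteins that hold it in check: Nfkb1, Nfkb2, Rela, Relb, Nfkbia, Nfkbib, Nfkbid, Nfkbie, Nfkbiz and Tnfaip3. They were taken as every array probe whose platform symbol is one of these 10 names. Of the 10 genes, 9 had a probe, with 11 probes in all among 45281 on the array, and 8 passed the filter on dim probes, out of 9736 genes that did. Nfkb1 was not analysed here, and the single probe of Nfkb2 was above background on 1 of 6 arrays. The family was chosen from earlier results on the same difference in signal between shEp400 and control arrays, so the members' values are given as a description, with no p-value.

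Expression was measured on Illumina bead arrays, which read the brightness of many beads per probe, in mouse embryonic stem (ES) cells, the self-renewing cells of the early embryo in culture. One group of 3 samples (shEp400) had received a short hairpin RNA against Ep400, the ATPase of the Tip60-p400 chromatin remodelling complex, and a group of 3 samples, whose transfection is labelled control without further description, served for comparison. Both groups were electroporated with a pHYPER vector, selected with puromycin, and grown in serum with the cytokine LIF on inactivated mouse embryonic fibroblasts, which remain in the culture and can contribute RNA. Whether the samples of a group were grown as separate cultures is not stated. The p-values therefore cover the spread among these arrays, which may be technical.

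Ep400 had normalized log2 signals of 8.88, 9.11 and 9.14 on the shEp400 arrays, against 9.72, 9.58 and 9.56 on the control arrays. All shEp400 values were below all control values, and the fall was 0.58 on the log2 scale (SE 0.16, limma adjusted p = 0.0159). It did not pass the test under cyclic loess normalization or without control replicate 1. Detected probes numbered 16152 to 17337 on the shEp400 arrays and 15441 to 16096 on the control arrays. All arrays shared 1 slide, on which the groups held different positions. Group and position on the slide cannot be told apart. Of all genes, 43.7% were called (20.6% higher and 23.1% lower in shEp400 cells), and the median log2 change was -0.06. Of the genes called, 47.2% were higher, against 59.4% with cyclic loess normalization, under which the median change was 0.05, and 39.1% with 75th percentile scaling, under which it was -0.17. Of 20 ES cell markers listed 19 were measured, 18 of them above background on all arrays. Of these 19, 10 fell, 1 rose and 8 did not pass by the limma test. Gdf3 (log2 change -2.42) and Tcl1 (-1.99) moved most. Sox2 fell (-1.60), while Pou5f1 (-0.49, SE 0.23) and Nanog (-0.30, SE 0.16) did not pass. Sox2, Pou5f1 and Nanog were named after their values were seen. The summed linear level of the ES cell markers was 56215 to 77246 on the shEp400 arrays and 84894 to 86593 on the control arrays. The surface marker Epcam was above background on 0 arrays. Of 34 fibroblast markers 27 were measured, 23 rose and 0 fell (also 0 fell at an unadjusted p under 0.05), with Lox (3.11) and Acta2 (3.04) moving most. The summed linear level of the fibroblast markers was 42818 to 63192 on the shEp400 arrays and 9851 to 11143 on the control arrays. Of the listed fibroblast markers not measured, Postn and Dpt had probes above background on 0 arrays. Of 12 macrophage and leukocyte markers 6 were measured and 0 were called (1 was higher at an unadjusted p under 0.05), and Ptprc, Itgam and Tyrobp were above background on 0 arrays. Their summed level was 2871 to 5347 on the shEp400 arrays and 4073 to 4245 on the control arrays. Laptm5, named after its values were seen, made up most of this sum on every array. Its log2 values were 11.49, 12.02 and 11.27 on the shEp400 arrays, against 11.94, 11.83 and 11.86 on the control arrays. The median log2 difference of the measured macrophage and leukocyte markers from the control mean was -0.43, 0.84 and 0.01 on shEp400 arrays 1, 2 and 3. The macrophage lysozyme Lyz2, named after its values were seen, had log2 values of 5.44, 9.55 and 7.47 on the shEp400 arrays, against 5.27, 7.40 and 5.74 on the control arrays. In these bulk samples a change in the share of a cell type and a change in RNA per cell cannot be told apart.

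NF-kB is a family of dimeric transcription factors. Rela and Relb carry their own activation domains, while Nfkb1 and Nfkb2 encode precursors that are cut to DNA-binding subunits. In resting cells the classical inhibitors Nfkbia, Nfkbib and Nfkbie hold the dimers in the cytoplasm through ankyrin repeats. Signals from receptors of the TNF, interleukin-1 and Toll-like families activate the IkB kinases, which mark these inhibitors for destruction and free the dimers. Nfkbid and Nfkbiz are nuclear relatives of the inhibitors that bind subunits on chromatin and can raise or lower the output of selected targets. Tnfaip3 encodes A20, an enzyme that edits ubiquitin chains on signalling proteins upstream of the kinases. Nfkbia and Tnfaip3 are themselves well-known NF-kB targets, which closes a feedback loop. Mouse ES cells are known for weak NF-kB activity, which increases on differentiation.

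Because feedback through NF-kB binding sites is a hallmark of this family, the promoters of the members were searched for the kappa-B consensus, the 10-base element that NF-kB dimers bind, on both strands of the 250 bases before each annotated transcription start (RefSeq, GRCm38.p6). Of the 10 genes 7 had such a sequence, with 12 windows in all, since Nfkbid and Nfkb2 have 3 starts each and Tnfaip3 has 2. Windows of Nfkb2, Nfkbia, Nfkbid, Nfkbie and Tnfaip3 held a match, 7 of the 12 windows in all, where 3.90% of all 32851 windows of this length held one. A looser form, which fixes only the leading GGG and the trailing CC of the element and overlaps every match of the consensus, was in 11 of the 12 windows and in 45.8% of all windows. The windows of the members were 46.4% to 72.0% G and C, against a median of 52.4% over all windows. A match describes these letters and says nothing about binding in these cells.

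The 4 windows below are shown because they belong to the members with the clearest differences between the groups that have a sequence here. Each is the window of the most upstream annotated start, read 5′ to 3′ on the strand of the gene, with matches to the kappa-B consensus in capitals. They lie at chr12:55492648-55492897 on the minus strand for Nfkbia, chr10:19015411-19015660 on the minus strand for Tnfaip3, chr19:5637291-5637540 on the plus strand for Rela and chr7:30421481-30421730 on the plus strand for Nfkbid.
Nfkbia: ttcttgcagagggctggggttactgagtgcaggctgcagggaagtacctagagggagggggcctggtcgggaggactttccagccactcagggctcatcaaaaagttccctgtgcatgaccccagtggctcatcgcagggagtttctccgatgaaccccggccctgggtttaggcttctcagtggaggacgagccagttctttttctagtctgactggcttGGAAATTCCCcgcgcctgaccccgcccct
Tnfaip3: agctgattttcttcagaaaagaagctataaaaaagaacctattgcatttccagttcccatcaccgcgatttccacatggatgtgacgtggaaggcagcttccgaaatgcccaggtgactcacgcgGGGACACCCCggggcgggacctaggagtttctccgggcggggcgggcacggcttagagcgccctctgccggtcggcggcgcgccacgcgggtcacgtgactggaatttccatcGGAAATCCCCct
Rela: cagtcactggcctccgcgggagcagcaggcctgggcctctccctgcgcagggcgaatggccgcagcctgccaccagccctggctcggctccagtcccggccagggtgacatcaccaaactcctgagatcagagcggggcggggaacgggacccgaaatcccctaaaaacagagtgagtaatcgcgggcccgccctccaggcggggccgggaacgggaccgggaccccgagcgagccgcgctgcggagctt
Nfkbid: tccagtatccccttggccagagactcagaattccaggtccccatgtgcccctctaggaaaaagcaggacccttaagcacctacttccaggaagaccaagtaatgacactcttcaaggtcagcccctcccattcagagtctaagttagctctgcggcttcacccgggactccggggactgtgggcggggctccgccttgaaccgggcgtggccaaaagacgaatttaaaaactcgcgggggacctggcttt
The Nfkbia window held 1 match, GGAAATTCCC, whose first base is 29 bases before the start. The Tnfaip3 window held 2, GGGACACCCC at 125 bases and GGAAATCCCC at 12 bases before the start. The Rela window and this Nfkbid window held none, while the second annotated start of Nfkbid (chr7:30422156-30422405) had GGGACTTCCC at 226 bases and GGAATTCCCC at 181 bases before it. Nfkbie had GGGGGATTCC at 106 bases before its start.

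Among the subunits, the transcript of Rela was more abundant in shEp400 cells and that of Relb was not distinguishable between the groups. Rela, which encodes the activating subunit p65, was read by probe ILMN_2740859 at signals of 697, 863 and 1789 on the shEp400 arrays, against 381, 428 and 551 on the control arrays, before normalization. After normalization its log2 values were 9.21, 9.68 and 10.38 in shEp400 cells and 8.58, 8.54 and 8.84 in control cells. Every shEp400 value lay above every control value, and the shEp400 arrays were spread wider (9.75 ± 0.59 in shEp400 and 8.66 ± 0.16 in control cells, SD, n = 3 each). The log2 difference was 1.10 (SE 0.27), a 2.14-fold higher level. Array 3 of the shEp400 group was highest, and without it the difference was 0.79.

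Relb encodes the subunit of the alternative pathway, which pairs with the product of Nfkb2. Its probe ILMN_1246841 had log2 values of 6.78, 6.80 and 7.16 on the shEp400 arrays, against 6.57, 7.01 and 6.84 on the control arrays. These ranges overlapped, and the log2 difference of 0.11 (SE 0.19) was smaller than the SD of either group (0.21 in shEp400 and 0.22 in control cells). It turned to -0.02 without shEp400 replicate 3 and to -0.01 without control replicate 1. The probe of Nfkb2, ILMN_2642239, gave signals of 118, 99.1 and 129 in shEp400 cells and 115, 121 and 110 in control cells. It was above background on 0 shEp400 arrays and on 1 control array, so no fold is given.

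**Figure D1:**
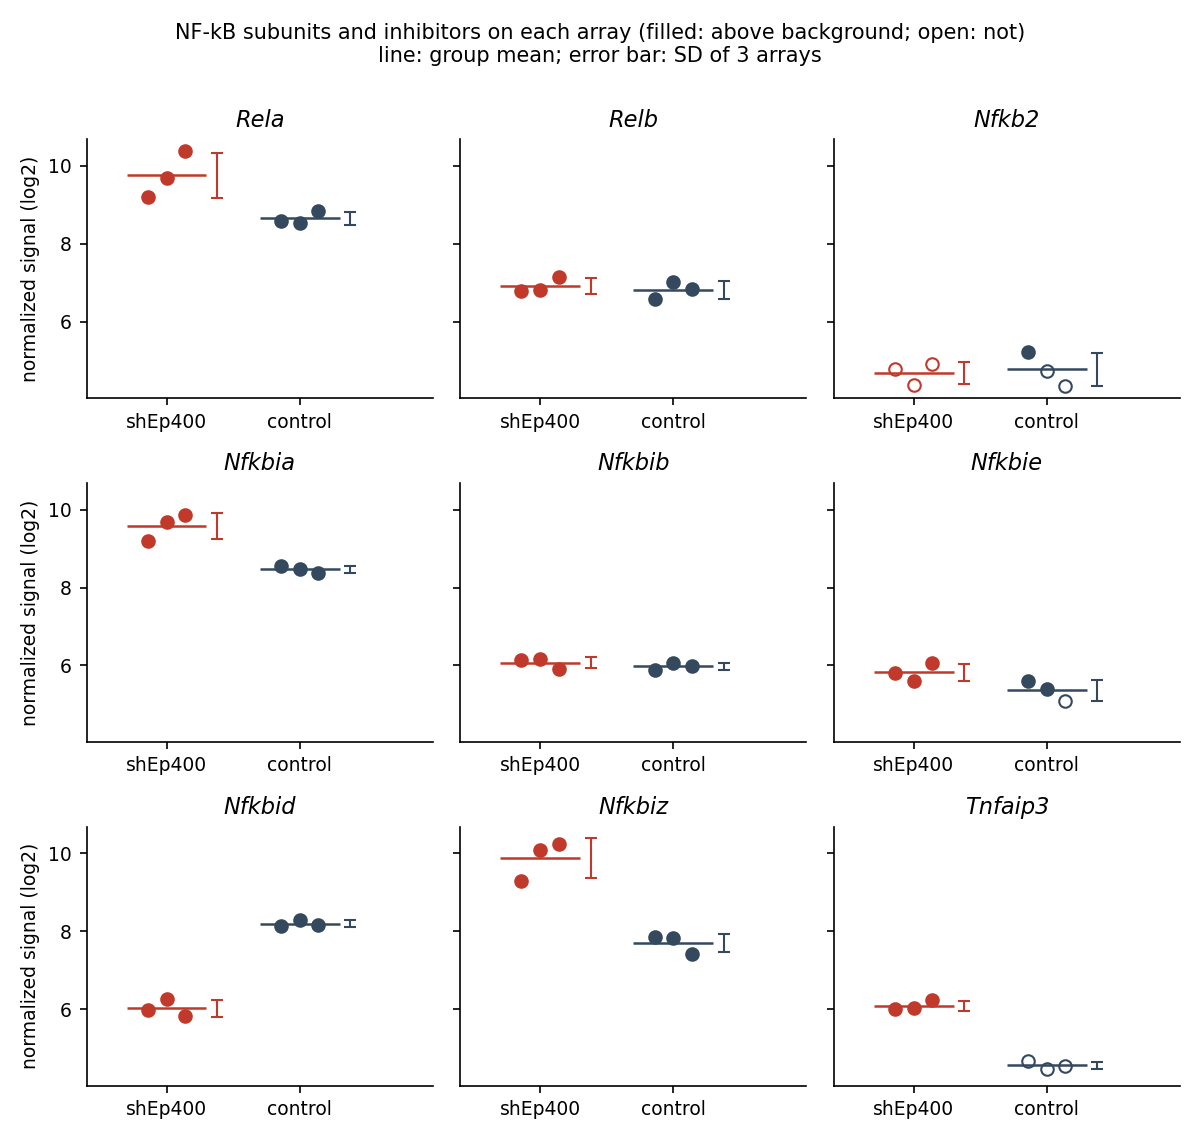
Normalized log2 signal (vertical axis) of 9 members on the 3 shEp400 arrays (left, red) and the 3 control arrays (right, blue) of each panel. Lines mark group means and error bars the SD (n = 3), filled points were above background and open points were not, and levels of different genes are not comparable between panels. Rela, Nfkbia, Nfkbie, Nfkbiz and Tnfaip3 lie higher on every shEp400 array than on any control array, and Nfkbid lies lower on every one.

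Of the classical cytoplasmic inhibitors, Nfkbia differed most between the groups. Nfkbia encodes IkB-alpha, the inhibitor that is degraded and resynthesised within an NF-kB response and whose promoter window above holds a kappa-B match close to its start. Probe ILMN_3001914 gave signals of 692, 866 and 1315 on the shEp400 arrays, against 372, 415 and 419 on the control arrays. The log2 values were 9.20, 9.69 and 9.86 in shEp400 cells and 8.54, 8.49 and 8.37 in control cells. The groups did not overlap, and the log2 difference of 1.12 (SE 0.20), a 2.17-fold higher level, exceeded the SD of both groups (0.34 in shEp400 and 0.090 in control cells, n = 3 each). A second Nfkbia probe, ILMN_1218605, was above background on 1 shEp400 array (signals of 120, 110 and 151) and on 0 control arrays (107, 117 and 120), so it gave no usable fold.

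Nfkbie encodes IkB-epsilon. Its brighter probe, ILMN_2690551, had log2 values of 5.81, 5.61 and 6.05 on the shEp400 arrays, against 5.60, 5.40 and 5.08 on the control arrays, where 2 of 3 arrays were above background. The lowest shEp400 value exceeded the highest control value by little, and the log2 difference was 0.46 (SE 0.20). It was 0.16 without background correction, and the groups overlapped with 75th percentile scaling. Its dimmer probe, ILMN_1238752, was above background on 1 shEp400 array and 0 control arrays. Nfkbib, which encodes IkB-beta, had log2 values of 6.15, 6.17 and 5.90 on the shEp400 arrays, against 5.89, 6.07 and 5.98 on the control arrays (probe ILMN_2612007). The ranges overlapped, and the log2 difference was 0.10 (SE 0.16).

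The nuclear inhibitors Nfkbid and Nfkbiz differed in opposite directions. Nfkbiz encodes IkB-zeta, a coactivator of secondary inflammatory targets. Its probe ILMN_2755008 gave signals of 739, 1106 and 1655 on the shEp400 arrays, against 263, 292 and 257 on the control arrays. The log2 values were 9.30, 10.08 and 10.25 in shEp400 cells and 7.85, 7.82 and 7.43 in control cells. The groups lay far apart, with a log2 difference of 2.18 (SE 0.25), a 4.53-fold higher level, and 98.3% of all genes tested had a lower value. The difference was 1.94 with normexp fitted without the negative controls and 1.79 without background correction.

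Nfkbid encodes IkB-NS, a nuclear regulator known from lymphocytes and macrophages. Its probe ILMN_1225192 gave signals of 158, 161 and 170 on the shEp400 arrays, against 303, 373 and 375 on the control arrays. The log2 values were 5.97, 6.26 and 5.83 in shEp400 cells and 8.14, 8.29 and 8.17 in control cells. The groups did not overlap, with a log2 difference of -2.18 (SE 0.17), a 4.53-fold lower level, and only 0.092% of all genes tested had a lower value. All 6 arrays were above background. The size depended on the background correction: the difference was -1.57 with normexp fitted without the negative controls, and -1.30 when background was left in or the deposited matrix was used.

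Tnfaip3, which encodes the ubiquitin-editing enzyme A20, was above background on all 3 shEp400 arrays and on 0 control arrays. Its probe ILMN_1252202 gave signals of 159, 150 and 199 on the shEp400 arrays, against 105, 114 and 118 on the control arrays. The log2 values were 6.00, 6.04 and 6.24 in shEp400 cells and 4.67, 4.48 and 4.54 in control cells. The groups did not overlap, and the control values are bounds only. With the background correction used here, the level was at least 1.93-fold higher in shEp400 cells (0.95 on the log2 scale). For the bound, each control array contributed the lowest value of any detected probe on it, since Tnfaip3 itself was dimmer. The bound rests on the background correction. The fitted log2 difference, with the control values as they were, was 1.53 with the correction used here and 0.52 without background correction. It was 0.74 when normexp was fitted without the negative controls.

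**Figure D2:**
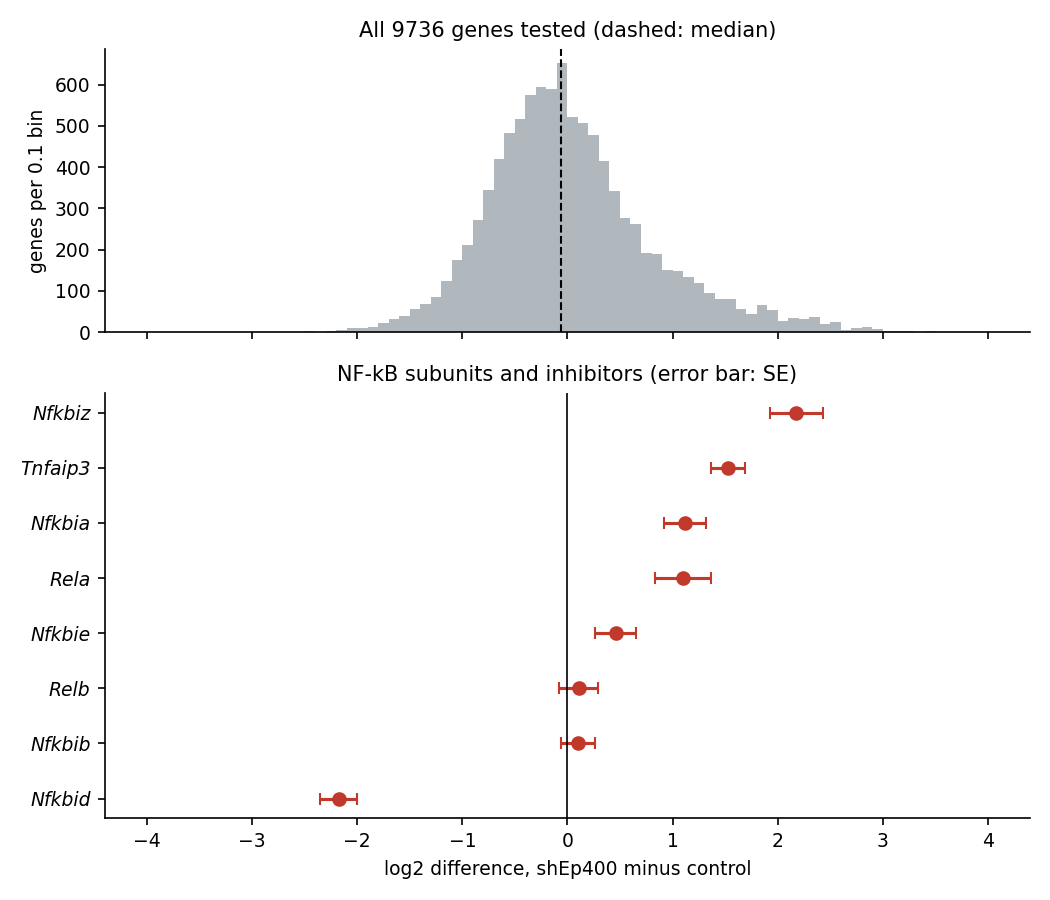
The upper panel is a histogram of the log2 change, shEp400 minus control, of all 9736 genes tested, and the lower panel gives the log2 difference of the 8 members measured, with SE as error bars. Nfkbiz (2.18) and Nfkbid (-2.18) lie near opposite ends, Relb (0.11) and Nfkbib (0.10) lie near 0, and the value of Tnfaip3 is the fitted one, whose control side was not above background.

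In the fit over all genes 4 of the 8 members (Nfkbiz, Tnfaip3, Nfkbia and Rela) were called higher, where 20.6% of all genes were, and 1 (Nfkbid) was called lower, where 23.1% were. The values did not overlap for 6 of the 8 (55.5% of all genes), with 5 above control (25.1% of all genes) and 1 below (30.3%). Since these members were picked with this contrast known, nothing is read from these calls or counts. Their median log2 difference was 0.78, or 0.71 with Tnfaip3 at its bound, against -0.06 for all genes.

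The higher members also differed among the shEp400 arrays. Measured from the control mean, Rela was 0.55, 1.02 and 1.72 higher on shEp400 arrays 1, 2 and 3, Nfkbia 0.73, 1.22 and 1.40 and Nfkbiz 1.60, 2.38 and 2.55. Array 1 was thus the lowest and array 3 the highest for each of these genes. The median of the fibroblast markers was 1.64, 2.07 and 2.31 higher on the same arrays, and that of the ES cell markers was -0.36, -0.56 and -1.10. Nfkbid was -2.23, -1.93 and -2.37 from the control mean, with array 2 closest to control. The part that fibroblast RNA has in these differences was not tested.

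**Figure D3:**
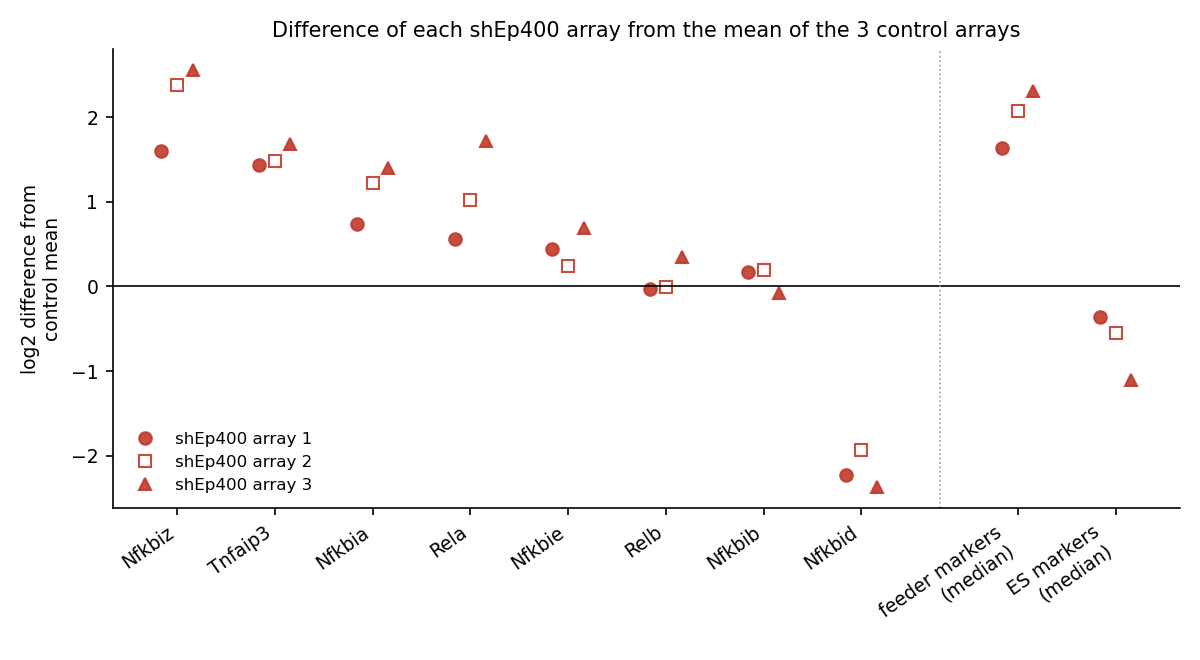
Log2 difference of each shEp400 array from the mean of the 3 control arrays (vertical axis) for the 8 members measured and, right of the dotted line, the medians of the fibroblast (feeder) and ES cell marker lists. Circles, squares and triangles stand for shEp400 arrays 1, 2 and 3, and the control side of Tnfaip3 was not above background. Rela, Nfkbia, Nfkbiz and the fibroblast median are lowest on array 1 and highest on array 3.

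By the distance between centred log2 values over the 6 arrays, the genes most like Nfkbiz were Loxl1, a collagen cross-linking enzyme (root mean square distance 0.093), H4c8, a histone H4 gene with near-identical copies that its probe may also read (0.093), and Tpm1, a tropomyosin of actin filaments (0.11). Loxl1 is also on the fibroblast marker list. Those most like Nfkbid were the growth factor Fgf17 (0.15), the peroxisomal oxidase Pipox (0.16) and Prrg3, a membrane protein with a Gla domain (0.17). Their log2 changes were 2.07, 2.23 and 2.24 for the genes like Nfkbiz and -2.21, -1.99 and -2.06 for those like Nfkbid. The distance includes the difference between the groups, so log2 changes close to that of the member follow from the choice and are not a separate result. Without background correction the changes of Fgf17, Pipox and Prrg3 were -1.34, -0.88 and -1.01.

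The rest of the pathway was described from 5 lists of 183 genes that hold no member, of which 114 were measured. Of these 48 rose and 8 fell by the limma test, or 42.1% and 7.02%, where 20.6% and 23.1% of all genes did, and their median log2 change was 0.39, or 0.38 with the 4 genes that 1 group did not detect at their bounds. The falls numbered 3 without control replicate 1, 4 without control replicate 2 and 5 with cyclic loess normalization, but 11 with 75th percentile scaling and 12 with array weights. The filter on dim probes admits a gene that is silent in control cells only where every shEp400 array detects it. This favours higher over lower values among such genes, and the reverse holds for genes silent in shEp400 cells. The fibroblast marker sums given above were higher on every shEp400 array, and their part in the changes of these lists was not tested.

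Ligands that start the pathway were mostly below background. Of 16 listed, 2 were measured, the interleukin Il1a (log2 change 0.18, SE 0.21) and Tnfsf11, the RANK ligand (-0.03, SE 0.27), and neither passed the limma test, nor an unadjusted p under 0.05. The 2 probes of Tnf and the 2 of Lta were above background on 0 arrays, and the probe of Il1b on 2 of 6. These were named after their values were seen.

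Of 16 receptors measured, 8 rose, 2 fell and 6 did not pass. The rises were 50% and the falls 12.5% of the list, where 20.6% and 23.1% of all genes rose and fell. The median log2 change was 0.79, or 0.68 with the 2 genes that 1 group did not detect at their bounds. Tnfrsf12a, the receptor of TWEAK, had log2 values of 9.37, 10.12 and 10.54 on the shEp400 arrays, against 7.64, 7.62 and 7.98 on the control arrays, a 4.81-fold rise (SE of the log2 change 0.27, limma adjusted p = 0.000214). Tnfrsf22, a decoy receptor for TRAIL in the mouse, rose 6.30-fold on its brightest probe (log2 change 2.66, SE 0.18), and by 1.70 on the log2 scale as the mean of its detected probes. Tnfrsf11b, the secreted decoy osteoprotegerin, rose with a fitted log2 change of 2.23 (SE 0.29), or 0.98 without background correction. It was above background on 1 of 3 control arrays, so the size of its rise is uncertain. Cd40, a co-stimulatory receptor, rose 2.32-fold (log2 change 1.21, SE 0.17). The death receptor Tnfrsf25 was above background on 0 shEp400 arrays. With the background correction used here it was at least 1.98-fold lower (limma adjusted p = 0.000238). That bound rests on the correction, as the fitted log2 change was -1.27 with it and -0.42 without background correction. Tnfrsf13c, the BAFF receptor, was detected on 1 of 3 shEp400 arrays and fell with a fitted log2 change of -0.89 (SE 0.22) of uncertain size, but did not pass the test when background was left in or the deposited matrix was used. The count of rises was 5 without shEp400 replicate 2 or control replicate 3 and 4 among probes detected on all arrays, and that of falls was 1 without any 1 of the control replicates and 0 among probes detected on all arrays.

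Of 35 adaptors and kinases measured, 9 rose, 3 fell and 23 did not pass, with a median log2 change of 0.18. That is 25.7% rising and 8.57% falling, where 20.6% and 23.1% of all genes did. Sqstm1, the scaffold p62, averaged 12.70 ± 0.28 on the shEp400 arrays and 11.10 ± 0.16 on the control arrays (log2 values, SD, n = 3 each), a 3.03-fold rise with a limma adjusted p of 0.00021. The interleukin-1 receptor kinase Irak2 rose 2.25-fold (SE of the log2 change 0.31), Tank, a TRAF-binding adaptor, 2.12-fold (0.17) and Peli1, a ubiquitin ligase, 1.73-fold (0.20). Irak3, an IRAK family member known as a brake on Toll-like signalling, fell 2.10-fold (SE of the log2 change 0.27). Its log2 change was -1.07, but -0.72 without control replicate 3 and -0.68 without background correction. That of Irak2 was 1.17, but 0.82 without control replicate 2 and 0.72 without background correction. Birc2, the ubiquitin ligase cIAP1, fell 1.55-fold and Rbck1, a subunit of the linear ubiquitin ligase, fell 1.40-fold. The calls of Birc2 and Rbck1 were lost with cyclic loess and in 4 and 5 of the 6 fits that left out 1 array. The kinase subunits Ikbkb (log2 change 0.14, SE 0.16) and Ikbkg (0.39, SE 0.19), named after their values were seen, did not pass the test. The count of rises was 5 without shEp400 replicate 3, control replicate 1 or control replicate 2, and 6 with 75th percentile scaling. That of falls was 1 without control replicate 1 or 2 and with cyclic loess, and 6 with array weights.

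Of 19 other subunits and inhibitors measured, 2 rose, 3 fell and 14 did not pass, with a median log2 change of -0.01. These shares, 10.5% rising and 15.8% falling, were both below those of all genes (20.6% and 23.1%). Bcl3, a nuclear relative of Nfkbid and Nfkbiz that binds p50 and p52 dimers, fell with Nfkbid. Its log2 values were 6.53, 6.64 and 5.79 on the shEp400 arrays, against 7.87, 8.13 and 7.71 on the control arrays, a 3.00-fold fall (log2 change -1.58, SE 0.24, limma adjusted p = 0.000712). The change was -0.94 without background correction. Rnf11, a partner of A20 in its ubiquitin-editing complex, rose 3.17-fold (log2 change 1.66, SE 0.23) and Nkiras2, a Ras-like regulator of IkB, rose 1.43-fold. The phosphatase Ppp4c fell by 0.58 on the log2 scale (SE 0.16) and Nkrf, a repressor of NF-kB targets, fell 1.43-fold. The calls of Nkiras2, Ppp4c and Nkrf were lost in 4, 1 and 5 of the 6 fits that left out 1 array, so that without control replicate 1 only Bcl3 fell and only Rnf11 rose. That of Nkiras2 was also lost with 75th percentile scaling and that of Nkrf with cyclic loess. With 75th percentile scaling 1 gene of this list rose and 5 fell, and 4 rose with the mean of each gene's detected probes. The count of rises was 1 without shEp400 replicate 2 or any 1 of the control replicates. Rel, the subunit c-Rel, had 1 probe, above background on 0 arrays, and the A20 partner Tnip1 (log2 change -0.18, SE 0.16) did not pass. Both were named after their values were seen.

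Of 42 target genes measured, 29 rose (69.0%, where 20.6% of all genes did), 0 fell and 13 did not pass by the limma test, with a median log2 change of 1.49 against -0.06 for all genes. At an unadjusted p under 0.05, 32 were higher and 1 was lower, and 1 was called lower with 75th percentile scaling, normexp without the negative controls, no background correction, the deposited matrix or array weights. The chemokine Ccl7 had log2 values of 11.67, 12.01 and 11.80 on the shEp400 arrays, against 9.51, 9.39 and 8.99 on the control arrays, which is 5.79-fold higher (SE of the log2 change 0.19, limma adjusted p = 3.45e-05). The monocyte chemokine Ccl2 rose 5.82-fold (SE of the log2 change 0.24), with log2 values of 9.01, 9.46 and 9.95 on the shEp400 arrays, against 6.93, 6.74 and 7.13 on the control arrays. The T cell chemokine Ccl5 rose 7.87-fold and was the most variable of these, at 10.18, 12.45 and 11.66 on the shEp400 arrays and 8.43, 9.09 and 7.85 on the control arrays. Array 2 of each group was highest for Ccl5, as it was for Lyz2, Fcer1g and Cd52. Laptm5, Coro1a and Csf1r were highest on shEp400 array 2 but not on control array 2. Together these are all the macrophage and leukocyte markers measured. The array numbers follow the sample order only and do not pair arrays of the 2 groups. The part of macrophage RNA in the Ccl5 difference was not tested. Without shEp400 replicate 1 the log2 change of Ccl5 was 3.62, against 2.98 with all arrays. Csf1, the macrophage growth factor, rose 7.10-fold, with a log2 change of 2.83 (SE 0.33), or 1.81 without background correction. The adhesion molecule Icam1 (log2 change 0.03, SE 0.18) and the mitochondrial superoxide dismutase Sod2 (-0.38, SE 0.17), both well-known NF-kB targets and named after their values were seen, did not pass the test. Ccl2, Ccl7 and Csf1 are known products of fibroblasts. The median of the target list lay 1.08, 1.63 and 1.73 above the control mean on shEp400 arrays 1, 2 and 3. The fibroblast marker median lay 1.64, 2.07 and 2.31 above the control mean on the same arrays. The part that fibroblast RNA has in the changes of the target genes was not tested.

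**Figure D4:**
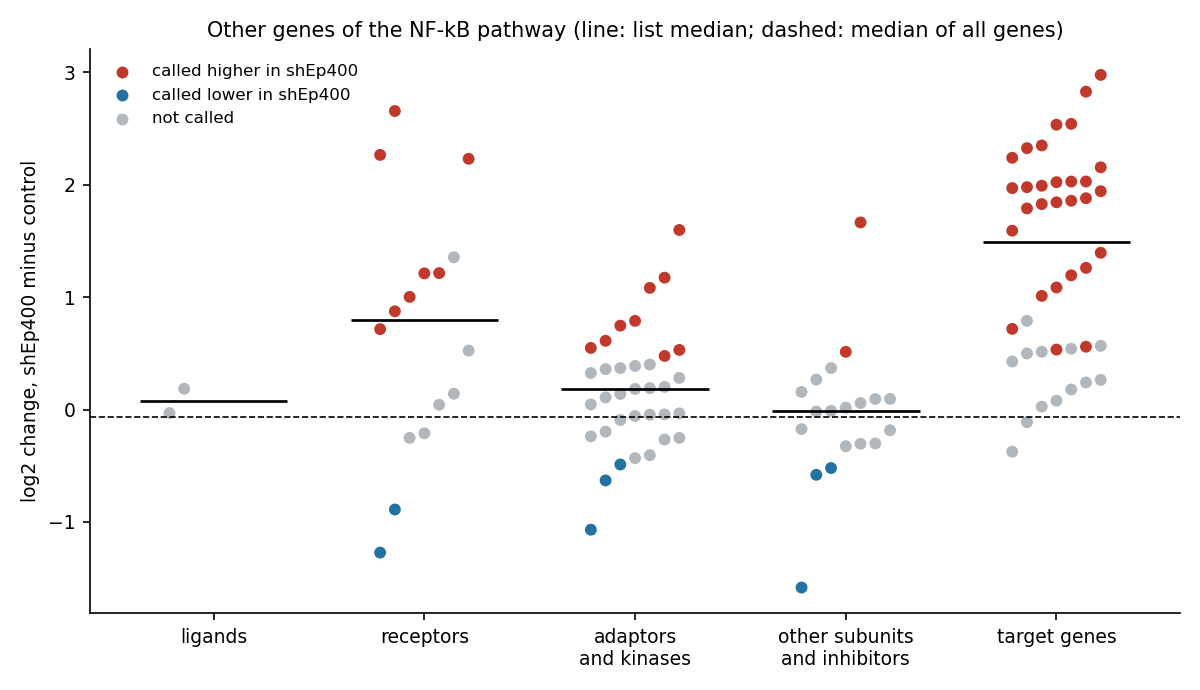
Log2 change, shEp400 minus control (vertical axis), of each measured gene in the 5 lists of other pathway genes, in red where called higher, blue where called lower and grey where not called. Black lines mark list medians and the dashed line the median of all genes. The target genes (median 1.49) and receptors (0.79) lie mostly above 0, and the other subunits and inhibitors lie around 0, with Bcl3 lowest.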

How the data were processed

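Signal intensity on a linear scale and a detection p-value for each of 45281 probes on 6 arrays were deposited by the authors, per the file headers. GenomeStudio was used, per the submitters' processing notes, with a version and settings not given in the sources used here. A second table that the authors deposited (the deposited matrix), also intensities, had a median of 114 on every array and the same ranks, and served as an alternative. Log2 values were computed with neqc in limma 3.58.1 (R 4.3.3; offset 16, quantile normalization). The filter kept probes detected (p under 0.01) on 3 or more arrays, with the brightest probe for each gene, which left 9736 genes. The platform annotation names 1 gene for 34885 probes; probes with several symbols (18) or none (10378) were left out. The test over all genes was limma's moderated test (lmFit, then eBayes), two-sided and without covariates, with Benjamini-Hochberg adjustment at 0.05 and 4 residual degrees of freedom. SE is the moderated standard error. The steps were tested on simulated data.

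The members, gene lists and tests were chosen with earlier results of these data known. Genes named are the members, Ep400, and up to the 4 largest rises and 4 largest falls among called genes of each pathway list. The 3 genes most like the highest and the lowest member are also named. From each cell type list, up to 2 called genes are named, with the listed genes whose probes were never above background. Others are said to be named after their values were seen. Alternatives were other normalizations, background corrections, filters, probe rules, the deposited matrix, array weights and leaving out each array. The number of arrays limits the precision.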

Additional observations from a re-analysis of the deposited data

How the results depend on the processing

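Each count was recomputed under 15 alternatives, 6 of which left out 1 array. The genes called among all genes numbered 3755 to 5844 under the other 9 alternatives, against 4251, and 3000 to 4199 with 1 array left out. Tnfaip3 had no value among probes detected on all arrays, or without any 1 of the shEp400 replicates, when fewer than 3 arrays detect it. Pathway genes called higher numbered 40 to 57, against 48, and 35 to 48 with 1 array left out. Pathway genes called lower numbered 8, with counts between 5 (cyclic loess) and 12 (array weights) under the other alternatives and 3 to 7 with 1 array left out; the cause was not tested. No log2 difference of a called member or other named gene changed sign, and 7 of 33 other named genes lost their call in at least 1 alternative. Without background correction the differences of dim probes were smaller, such as Nfkbid (-1.30) and Tnfaip3 (0.52). No paired analysis was possible because the labels give no replicate numbers. No slide block could be fitted, since all arrays share 1 slide. Signal near background limits Nfkb2, Nfkbie, Tnfaip3 and the ligands.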
